A study of Mus musculus with 26 samples.

Results

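Total mRNA was measured by RNA-seq in macrophages sorted from 13 mouse mammary tumours, and macrophages of 5 large tumours were set against those of 8 small tumours. These 13 total mRNA libraries are the members described here, of 26 libraries in the series, and they were chosen by RNA source and by the tumour weight in the labels, not by any measured level. Tumours above 1000 mg were called large (1504 to 2245 mg, median 1668 mg) and those below it small (467 to 841.8 mg). All mice were female FVB animals, aged 5 to 7 weeks when they received PyMT mammary tumour cells (named for the polyoma middle T oncogene) by injection into the fourth inguinal mammary gland. No treatment, knockout or transgene of the host is named in the labels, and both groups share strain, sex and injected cells. Macrophages were gated as CD11b+F4/80+Ly6G- and kept in cycloheximide, a translation inhibitor, during the sort. A share of about 10% of the sorted cells of each tumour was lysed for total RNA, and libraries were made with SmartSeq2, a full-length cDNA method. The remaining cells gave the polysome libraries of the same tumours, used here as a second readout only.

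The groups span 2 experimental batches. Small replicates 1 to 5 (titles T2, T3, T15, T16 and T19) and large replicates 1 and 2 (T4 and T22) are batch 1. Small replicates 6 to 8 (ER1 to ER3) and large replicates 3 to 5 (LR1 to LR3) are batch 2. ER and LR are kept as the labels write them. Since each library is a separate tumour, tests measure the spread between tumours.

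Tumour-associated macrophages arise from blood monocytes and from macrophages resident in the mammary gland. They take up dead cells and lipid, recycle iron, present antigen and release chemokines, growth factors and matrix proteases. In growing tumours they meet low oxygen, lactate and cytokines such as CSF1, which are known to move them between inflammatory and tissue-repair programmes. Bulk RNA cannot tell fewer cells of a type from less RNA per cell, which applies to every level below.

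Total counts per library were 18018519 to 55609113, with counts in 11850 to 17990 gene rows. The defining macrophage genes Adgre1 (F4/80), Csf1r and C1qa were detected in each library, and Ly6g, the neutrophil antigen gated out, had at most 2 counts and was at 0 in 9 libraries. The neutrophil genes S100a8 and S100a9 reached 22.6 and 19.4 CPM, both in small replicate 2, and were at 0 in 1 and 2 libraries. Small replicate 7 had the lowest levels of the macrophage genes (Adgre1 126 CPM against at least 481 CPM elsewhere, Mertk 9.01 against at least 30.7 CPM) and the highest of the epithelial keratin Krt8 (2500 CPM) and the fibroblast gene Dcn (1548 CPM). CPM, a read count relative to the scaled library total, is the unit of all levels. Along the first principal component, with 34.2% of the variance, small replicates 6 and 7 and large replicate 3, all of batch 2, stood at 92.5, 148 and 78.9, and the other libraries lay between −50.3 and 14.5. Their part in the results was not tested beyond the values given without them.

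**Figure D1:**
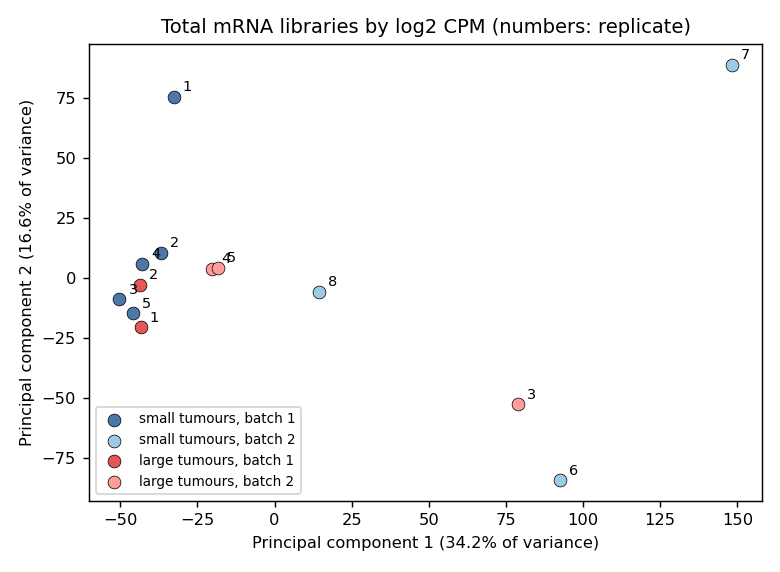
The 13 total mRNA libraries by their first 2 principal components of log2 CPM (axes in component units, with the share of variance). Colours give size class and batch and numbers give the replicate. Small replicates 6 and 7 and large replicate 3 lie at 78.9 or more on the first component, and no other library exceeds 14.5.

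The main comparison asked which mRNAs differ in level between macrophages of large and small tumours. No gene passed the test. Of 11671 genes tested with edgeR's quasi-likelihood test with batch as a covariate, 0 (0%) had an adjusted p below 0.05, and the lowest adjusted p was 0.865. At an unadjusted p below 0.05 there were 538 genes, 170 with a fold above 0 (higher in large tumours) and 368 with a fold below 0. The median log2 fold over all genes was −0.03, a centre that the scaling sets near 0. DESeq2 also called 0 genes (lowest adjusted p 0.252, 860 genes at an unadjusted p below 0.05), as did voom with sample weights (451 genes at that limit). With log2 tumour weight in place of the 2 classes, 0 genes (0%) passed and 896 had an unadjusted p below 0.05. These counts do not show that levels were equal. The 95% interval of a fold had a median half-width of 0.81 on the log2 scale over all genes and 0.69 over the 7895 genes whose mean reached 10 CPM. In 4388 of the latter (55.6%) the whole interval lay within 1 log2 unit of 0. Taken gene by gene, a 2-fold pooled difference lay outside that interval. For these genes as a set, or within a batch, such a difference is not excluded. Values below are therefore given without a verb of change, each log2 fold being large against small with its SE.

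Fitted alone, batch 1 (2 large, 5 small) gave 0 of 12373 genes (0%), with 346 at an unadjusted p below 0.05, and batch 2 (3 large, 3 small) gave 0 of 11859 (0%), with 621. The size by batch term, which tests whether the folds of the 2 batches differ, called 0 of 11671 genes (0%; lowest adjusted p 0.447, 735 genes at an unadjusted p below 0.05). Without small replicate 8 it called 4 genes and without large replicate 5 another 4. The batch term itself called 1952 genes (16.7%).

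Ranks rather than fits gave few separated genes. In 0 genes (0%) did each large tumour lie above each small one, and in 2 (0.0171%) each large tumour lay below. Both were named after their values were seen: a row joining AU019823, Pih1d2 and Timm8b, whose reads cannot be divided, with 45.7 to 55.6 CPM in large and 56.3 to 108 CPM in small tumours, and the predicted gene Gm8994, with a mean of 1.13 CPM. Required only within each batch, and in the same direction, the absence of overlap held for 18 genes lower in large tumours (0.154%) and 15 higher (0.129%). Rcan1, Egr3 and Ei24 were among the former, and Ncoa4, Ogt, Heatr1, Cyld, Uba6 and Ints2 among the latter. Size labels can be assigned within batches in only 420 ways, so some of 11671 genes separate in this manner by chance. Absence of overlap within batches therefore marks no gene out, here or below. After each batch's mean of small tumours was subtracted, 10 genes (0.0857%) were lower without overlap and 7 (0.06%) were higher.

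Rcan1 had the lowest p of all genes named here. It encodes a regulator of calcineurin, the calcium-dependent phosphatase that activates NFAT, and is itself a calcineurin-responsive gene (chromosome 16, 92391953 to 92470867, minus strand, GRCm38). Large replicates 1 to 5 had 34.2, 45.7, 80.8, 41.7 and 36.4 CPM. Small tumours ranged from 59.8 to 153 CPM with a median of 87.5. Large replicate 3 lay among the small tumours and the other large tumours lay below all of them. Within each batch the groups did not overlap. The log2 fold was −1.02 ± 0.25 (95% interval −1.56 to −0.47, unadjusted p = 0.00117, adjusted p = 0.865), with −0.93 in batch 1 and −1.07 in batch 2. Leaving out 1 library at a time gave −1.18 to −0.86, and leaving out the 3 libraries apart on the first component gave −1.03. In the polysome libraries of the same tumours its fold was −0.14 ± 0.32.

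A list named calcium and calcineurin response genes also holds parts of that pathway, so it does not measure a response alone. Of its 17 members tested, 0 passed, 11 had a fold below 0 and the median was −0.14, against −0.03 for all genes. Without small replicate 8 the median was 0.11, so its sign rested on that library. An unadjusted p below 0.05 was reached by 5 of them, each with a fold below 0. Over all genes it was reached by 538 of 11671, 368 of them with a fold below 0. Besides Rcan1 the 5 members were Marcksl1, Ppp3ca, Orai1 and Calm3. The list was chosen with earlier results of these data known, so its count is a description. Marcksl1, a membrane and actin-binding substrate of protein kinase C, had 18.3, 47.5, 62.8, 53.7 and 214 CPM in large replicates 1 to 5 and 32.7 to 977 CPM (median 130) in small tumours. Its levels in ER1 to ER3 were 977, 455 and 287 CPM, above each of the other 10 libraries, which reached at most 214 CPM. The fold was −1.86 ± 0.50 (unadjusted p = 0.00208), with −1.34 in batch 1 and −2.32 in batch 2. Ppp3ca encodes the catalytic subunit of calcineurin and had a fold of −1.04 ± 0.30 (−0.46 in batch 1, −1.56 in batch 2). Its large tumours had 17.4 to 57.7 CPM, small tumours of batch 1 22.8 to 31.3 CPM, and ER1 to ER3 171, 177 and 75.01 CPM. Orai1, the pore of the store-operated calcium channel (−1.27 ± 0.46), and Calm3, a calmodulin gene (−0.80 ± 0.34), were named after their values were seen. In batch 1 alone Calm3 had −0.07, and in batch 2 −1.52. The polysome folds were −0.02 for Marcksl1 and −1.24 ± 0.37 for Ppp3ca (adjusted p = 0.222).

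**Figure D2:**
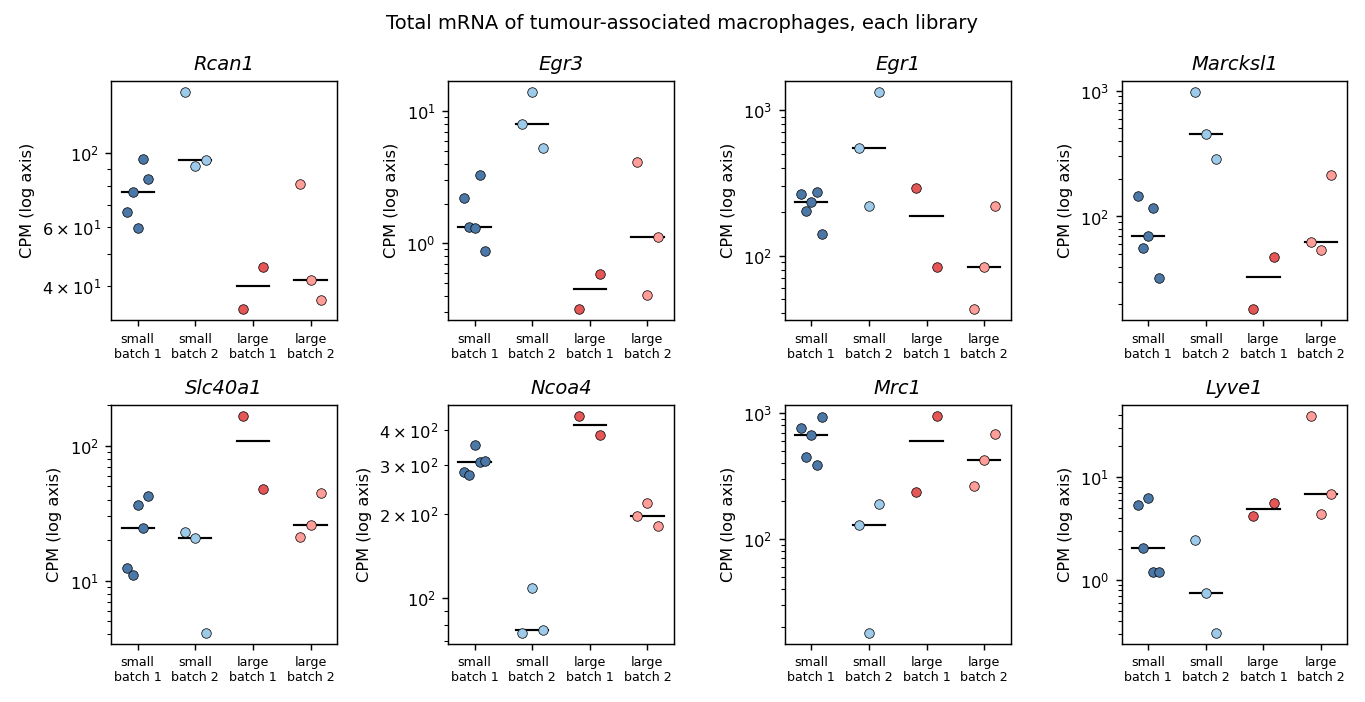
Level of 8 genes in each total mRNA library (CPM, log axes), by size class and batch, with 1 point per tumour and a bar at the group median. Rcan1 and Egr3 of large tumours lie below small tumours within each batch, Ncoa4 above them, and the other panels show overlap in at least 1 batch.

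Immediate early genes, the transcription factors and other genes induced within minutes of a stimulus, had mostly folds below 0. Of 23 tested, 0 passed, 19 had a fold below 0 (of all genes, 6210 of 11671 did), and the median was −0.57. It was −0.39 in batch 1, −0.50 in batch 2, −0.64 without the 3 libraries apart and −0.34 without small replicate 8. An unadjusted p below 0.05 was reached by 4, each with a fold below 0 (over all genes by 538 of 11671, 368 of them below 0). Egr3, a zinc-finger factor downstream of calcium and growth factor signals (chromosome 14, 70077203 to 70082614, plus strand, GRCm38), had 0.316, 0.588, 4.16, 0.407 and 1.11 CPM in large replicates 1 to 5. Small tumours had 0.867 to 14.0 CPM, with a median of 2.76. Over both batches large replicates 3 and 5 overlapped the small tumours, and within each batch there was no overlap. The fold was −2.13 ± 0.60 (unadjusted p = 0.00296), with −1.98 in batch 1, −2.24 in batch 2 and −2.67 to −1.88 when 1 library was left out. Its polysome fold was −3.25 ± 0.83 (unadjusted p = 0.000909, adjusted p = 0.146).

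Its relatives differed between batches in size. Egr1 had 293, 83.3, 42.8, 83.6 and 219 CPM in large tumours and 141 to 1329.9 CPM (median 249) in small ones. The highest large tumour, replicate 1, exceeded each small tumour of batch 1. Its fold was −1.35 ± 0.58, with −0.24 in batch 1, −2.57 in batch 2 and −0.88 without small replicate 8, which held the highest level. Egr2, which also marks alternatively activated macrophages, had 16.7, 18.6, 12.7, 8.78 and 19.6 CPM in large tumours and 11.1 to 76.0 CPM in small ones. For Egr2 batch 1 gave the larger fold, −1.43, and batch 2 −0.34. Both batch 1 large tumours lay below its 5 small tumours (35.6 to 76.0 CPM). Nr4a1, an orphan nuclear receptor needed by patrolling monocytes, had −0.93 ± 0.45 (−1.19 and −0.70 in the batches, −0.57 without small replicate 8), and Fos, a subunit of the AP-1 factor, had −0.36 ± 0.40. Fos levels overlapped, with 417 to 2562 CPM in large and 709 to 2906 CPM in small tumours. In polysome libraries the median fold of the 23 immediate early genes was −0.07, with 10 above 0. There Egr1 had 0.15 and Fos 0.33, while Egr2 had −0.97 and Nr4a1 −0.77.

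Among iron handling genes, those for storage release and export had folds above 0. Of 19 tested, 0 passed, 14 had a fold above 0 (5461 of 11671 over all genes) and the median was 0.36, with 0.33 in batch 1 and 0.36 in batch 2. Without the 3 libraries apart the median was 0.14, and without small replicate 8 it was 0.56. Ncoa4 encodes the receptor that delivers ferritin to lysosomes so that stored iron is freed (chromosome 14, 32159865 to 32179855, plus strand, GRCm38). Its large tumours had 452 and 386 CPM in batch 1 and 198, 220 and 182 CPM in batch 2. Small tumours had 278 to 354 CPM in batch 1 and 75.02 to 108 CPM in batch 2. Over both batches the groups overlapped, and within each they did not. The fold was 0.85 ± 0.22 (unadjusted p = 0.00148, adjusted p = 0.865), with 0.45 in batch 1, 1.26 in batch 2 and 0.77 to 1.00 when 1 library was left out.

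Slc40a1 encodes ferroportin, the only known iron exporter of mammalian cells (chromosome 1, 45908068 to 45926523, minus strand, GRCm38). Large replicates 1 to 5 had 167, 48.2, 21.2, 25.8 and 44.4 CPM, and small tumours had 4.11 to 42.3 CPM (median 21.99). Large replicates 1, 2 and 5 lay above each small tumour, and the other 2 lay within the small range. The fold was 1.52 ± 0.47 (unadjusted p = 0.00534), with 2.09 in batch 1 and 1.00 in batch 2, and 0.96 without large replicate 1. In polysome libraries Slc40a1 had a fold of 2.39 ± 0.42 (unadjusted p = 1.41e-05, adjusted p = 0.0772), which with Hagh was the lowest adjusted p of that fit. Both readouts come from the same tumours. Aco1, the iron-sensing aconitase that also binds iron-responsive elements, had 0.80 ± 0.41 (0.40 and 1.21), and 0.47 without large replicate 4. Hmox1, the heme-degrading oxygenase, had 206 to 401 CPM in large tumours and 60.7 to 346 CPM in small ones, with a fold of 0.50 ± 0.34 and 0.27 without small replicate 7.

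Genes of resident-type and perivascular macrophages differed in median between the batches. All 16 tested had a pooled fold above 0 (5461 of 11671 over all genes did), with a median of 0.85. Of the 16, 0 passed, and 2 had an unadjusted p below 0.05 (538 of 11671 over all genes). In batch 1 alone the median was −0.22, with 5 of 16 above 0, and in batch 2 it was 1.71, with 15 of 16. For the size by batch term 4 of the 16 had an unadjusted p below 0.05, against 735 of 11671 genes, and none passed after adjustment. The median stayed above 0 without small replicate 7 (0.55) and without the 3 libraries apart (0.39), and was 1.28 without large replicate 1. Small replicate 7, the library with the lowest macrophage genes, also had the lowest level of this list by the median of its members, 1.76 log2 units below the mean of the libraries, and large replicate 3 had the highest, 1.84 units above it. The part of the lower macrophage content of small replicate 7 was not tested beyond the value without it.

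Lyve1, a hyaluronan receptor of perivascular macrophages and lymphatic endothelium (chromosome 7, 110850607 to 110863239, minus strand, GRCm38), had 4.16, 5.61, 39.2, 4.34 and 6.84 CPM in large tumours. In small tumours it had 0.306 to 6.17 CPM, with a median of 1.61. The batch 1 groups overlapped, and the 3 LR tumours lay above the 3 ER tumours. Its fold was 2.47 ± 0.93 (0.62 in batch 1, 3.84 in batch 2) and 1.44 without large replicate 3. Retnla, a secreted product of alternative activation, rested on the same library: large replicate 3 had 113 CPM and the other large tumours 3.42 to 31.5 CPM, against 2.19 to 16.2 CPM in small tumours. Its fold was 2.07 ± 0.79, and 0.76 without large replicate 3. Mrc1, the mannose receptor CD206, had 237, 955, 264, 420 and 681 CPM in large tumours and 17.9 to 934 CPM (median 419) in small ones. The upper ends of the 2 classes were alike, and the 3 lowest libraries were ER1 to ER3. Its fold was 1.08 ± 0.62, with −0.10 in batch 1, 2.05 in batch 2 and 0.66 without small replicate 7. Cd36, a scavenger receptor for oxidised lipid, had −0.87 in batch 1 and 3.24 in batch 2, and 1.59 ± 0.97 with both (0.83 without small replicate 7). Folr2, the folate receptor of resident macrophages, had 0.42 ± 0.55, and Cd163, the haemoglobin scavenger receptor, 0.57 ± 0.68. Without the 3 libraries apart these were −0.04 and −0.13.

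Alternative activation genes followed the same split. Of 20 tested, 15 had a fold above 0 and the median was 0.54, with −0.22 in batch 1, 0.84 in batch 2, 0.21 without small replicate 7 and −0.08 without the 3 libraries apart. Monocyte genes had a median of −0.03 (0.32 without small replicate 7), with −0.44 in batch 1 and 0.47 in batch 2, and 8 of 17 lay above 0. Ccr2, the chemokine receptor that brings monocytes into tumours, had 126 to 400 CPM in large tumours and 27.7 to 415 CPM in small ones. Its fold was 1.18 ± 0.59, with −0.33 in batch 1, 2.39 in batch 2 (size by batch term, unadjusted p = 0.00574) and 0.77 without small replicate 7. Ly6c2, the classical monocyte marker, had 0.32 ± 0.69, with −0.51 and 1.07 in the batches.

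**Figure D3:**
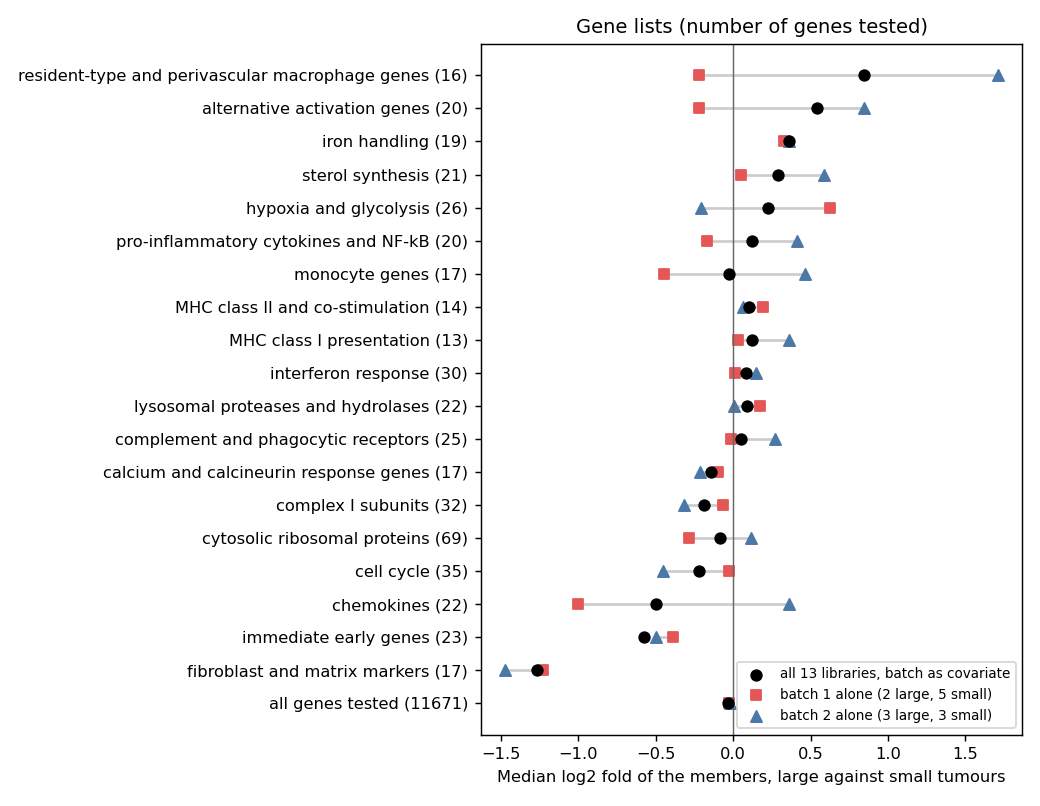
Median log2 fold (large against small) of the members of 19 gene lists and of all genes, with all 13 libraries and batch as covariate (black circles), in batch 1 alone (red squares) and in batch 2 alone (blue triangles). Iron handling lies at 0.33 to 0.36 in all 3 fits and immediate early genes at −0.57 to −0.39, while resident-type genes run from −0.22 in batch 1 to 1.71 in batch 2 and chemokines from −1.001 to 0.36.

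Chemokines also had a lower median in batch 1 than in batch 2, but their pooled median lay below 0. Of 22 tested, 14 had a fold below 0 and the median was −0.50, with −1.001 in batch 1, where 4 of 22 lay above 0, and 0.36 in batch 2, where 13 did. Without large replicate 2 it was −0.03 and without small replicate 8 −0.04. Ccl5, a T cell attractant, had −1.22 ± 0.51 (−0.68 and −1.71) and −0.69 without small replicate 6, which had 36.3 CPM against at most 10.7 CPM elsewhere. Ccl3 had −0.71 ± 0.39 (−0.97 and −0.46), and −0.46 without small replicate 8. In batch 1 the neutrophil attractants Cxcl1 and Cxcl2 and the prostaglandin synthase Ptgs2, named after their values were seen, showed no overlap. Ptgs2 had 11.3 and 8.10 CPM in large replicates 1 and 2 and 22.99 to 55.01 CPM in small replicates 1 to 5 (fold −1.86). Cxcl1 had 1.94 and 1.36 CPM against 4.55 to 15.3 CPM (fold −2.67), and Cxcl2 had 16.5 and 5.61 CPM against 30.1 to 48.8 CPM (fold −1.83). With 2 large against 5 small tumours many genes can separate by chance, and the share of all genes that did so is not given here. In batch 1 alone 0 of 12373 genes passed. In batch 2 the folds were 1.28, 0.76 and 0.24, and with both batches the folds were −0.09 ± 0.81, −0.66 ± 1.02 and −0.66 ± 0.75. Their size by batch terms had unadjusted p of 0.0198, 0.0413 and 0.127, and none passed after adjustment.

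Pro-inflammatory cytokine and NF-kB genes had a median of 0.12 (14 of 20 above 0), with −0.17 in batch 1 and 0.41 in batch 2. Folds in this list ran from −2.07 to 2.73. Il12b, the shared subunit of interleukins 12 and 23, had the lowest fold and was the only member with an unadjusted p below 0.05. It had 0.452, 0.407, 0.990, 1.40 and 0.597 CPM in large tumours and 0.124 to 5.86 CPM (median 2.43) in small ones. Small replicate 5 had the lowest level of all, and the other small tumours lay above the highest large one, at 1.42 CPM or more. Its fold was −2.07 ± 0.67 (unadjusted p = 0.00786), with −2.21 in batch 1 and −1.90 in batch 2, and −4.18 ± 1.55 in polysomes.

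Hypoxia and glycolysis genes had 22 of 26 folds above 0 and a median of 0.23, 0 of them called. In batch 1 the median was 0.63 and in batch 2 it was −0.21. Large replicate 1 had the highest level of this list, 1.29 log2 units above the mean of the libraries, and without it the median was −0.23. Pfkfb3, which makes the activator of phosphofructokinase, had 236, 64.7, 78.4, 62.6 and 82.7 CPM in large tumours and 26.9 to 125 CPM (median 99.9) in small ones. Its fold was 0.73 ± 0.29 (0.45 and 1.02), and 0.48 without large replicate 1. Slc2a1, the glucose transporter GLUT1, had 408 CPM in large replicate 1, 51.9 to 88.6 CPM in the other large tumours and 26.6 to 174 CPM in small ones. Only large replicate 1 lay outside the small range. Its fold of 0.98 ± 0.51 was 0.08 without that library. P4ha1, a collagen prolyl hydroxylase induced by low oxygen, had 0.51 ± 0.27, with 0.61 in batch 1, 0.42 in batch 2 and 0.42 to 0.78 when 1 library was left out.

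The same tumour set the folds of several other genes. Hspa1a and Hspa1b, which encode near-identical inducible HSP70 proteins and may share reads, had 153 and 142 CPM in large replicate 1. Elsewhere they had at most 46.6 and 60.3 CPM. Their folds of 1.53 ± 0.76 and 1.24 ± 0.60 were −0.03 and 0.08 without it. For Lpl, the lipoprotein lipase, a fold of 1.28 ± 0.64 was −0.22 without it (175 CPM there, 4.39 to 110 CPM in the other large tumours). Adam8, a membrane protease (278 CPM there), had 1.43 ± 0.77 and −0.10 without it, and Mmp13, a collagenase (93.9 CPM there), had 1.52 ± 0.80 and 0.15. Large replicate 1 also had the highest share of counts in T and NK cell (0.0224%), neutrophil (0.0251%) and endothelial markers (0.00388%). Its shares of the other marker lists were not the highest. The part of other cells in the levels of this tumour was not tested.

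Spp1 encodes osteopontin, a secreted matrix protein of tumour macrophages, and was the lipid-handling TAM gene with the lowest p. Large replicates 1 to 5 had 1006, 3178, 2943, 4094 and 1227 CPM, and small tumours had 2577 to 6734 CPM (median 4091). Large replicates 1 and 5 lay below each small tumour, and the others lay within the small range. The fold was −0.91 ± 0.37 (unadjusted p = 0.0272), with −0.81 in batch 1, −0.96 in batch 2, −1.28 to −0.68 when 1 library was left out and −1.04 ± 0.55 in polysomes. The lipid-handling list had a median of 0.16, with 11 of 18 above 0, and −0.06 without large replicate 1, and Trem2, its lipid-sensing receptor, had 0.11 ± 0.37.

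Antigen presentation genes lay near all genes, with a median of 0.10 for 14 MHC class II and co-stimulation genes and 0.12 for 13 MHC class I genes. Without large replicate 1 these were −0.09 and −0.03. Tap2, a subunit of the peptide transporter, had the lowest p of the latter, with a fold of 1.19 ± 0.43 (0.26 in batch 1, 2.03 in batch 2). Its levels were 9.12 to 16.8 CPM in ER1 to ER3 and 17.2 to 135 CPM in the other 10 libraries. For sterol synthesis, 18 of 21 genes had a fold above 0 and the median was 0.29, with 0.05 in batch 1 and 0.59 in batch 2. Hmgcs1 (0.73 ± 0.35), Nsdhl (0.60 ± 0.31) and Idi1 (1.32 ± 0.73), enzymes of that pathway, had the lowest p of it. Without large replicate 4 Nsdhl had 0.24 and Idi1 0.35. Idi1 had −0.24 in batch 1 and 2.57 in batch 2. Complex I subunits of the respiratory chain had 27 of 32 folds below 0 and a median of −0.19 (−0.07 and −0.32, and −0.05 without large replicate 5), with Ndufa5 at −0.66 ± 0.33 and Ndufc1 at −0.60 ± 0.31. In polysome libraries the complex I median was 0.67, with 30 of 32 folds above 0. Cytosolic ribosomal protein genes had −0.09 (−0.29 and 0.12), and 0.36 without small replicate 8. Without small replicate 7 their median was −0.23, and without the 3 libraries apart it was −0.33. In polysome libraries the ribosomal median was 0.36, with 60 of 68 folds above 0. Cell cycle genes had −0.22 (−0.03 and −0.45), and −0.03 without small replicate 7 or −0.45 without large replicate 2. The list of MNK kinases, eIF4E and its binding proteins, which act on cap-dependent translation, had a median of 0.02, with Mknk1 at 0.95 ± 0.45 (0.02 in batch 1, 1.77 in batch 2, 0.57 without large replicate 4). The 10 panel genes not described one by one (Arg1, Vegfa, Il1b, Tnf, Cd274, H2-Ab1, Hif1a, Mki67, Mknk2 and Eif4e) had folds from −0.63 (Tnf) to 0.88 (Cd274), none with an unadjusted p below 0.05.

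Among the genes with low p, the small tumours of batch 2, ER1 to ER3, often stood apart from the other 10 libraries. ER1 to ER3 lay above all others in 317 genes (2.72%) and below all others in 338 (2.9%). For LR1 to LR3 the same counts were 14 (0.12%) and 13 (0.111%). Of the 10 named for low p and a fold below 0 in both batches, 8 had ER1 to ER3 above all others, the exceptions being Rcan1 and Mettl9. Of the 10 with a fold above 0, 8 had ER1 to ER3 below all others, the exceptions being Slc40a1 and Lrp12. Batch 2 gave the larger fold in all 10 of the former and in 9 of the latter. Over the 368 genes with an unadjusted p below 0.05 and a fold below 0, 133 (36.1%) had ER1 to ER3 above the rest, and over the 170 with a fold above 0, 78 (45.9%) had them below. ER1 to ER3 enter the fold itself, so these shares are a description.

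The genes with a fold below 0 in this set include Rcan1, Marcksl1 and Ppp3ca, described above. Ei24, an endoplasmic reticulum protein of autophagy, had −1.27 ± 0.33, with 73.6 to 177 CPM in ER1 to ER3 and at most 39.8 CPM elsewhere. Brf1, a subunit of the RNA polymerase III initiation factor, had −1.29 ± 0.35 (103 to 141 against at most 43.0 CPM). Arf5, a small GTPase of Golgi traffic, had −1.44 ± 0.42 (285 to 704 against at most 148 CPM). Cmas, which activates sialic acid, had −1.55 ± 0.45 (49.3 to 145 against at most 19.8 CPM). In batch 1, where no ER library enters, these 4 had −0.57, −0.51, −0.54 and −0.55. Ap3s1 (−1.13 ± 0.32), a subunit of an endosomal adaptor complex, Ubald2 (−0.93 ± 0.27) and Mettl9 (−1.27 ± 0.36), a histidine methyltransferase, completed the 10.

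Those with a fold above 0 include nuclear and ubiquitin pathway genes. Heatr1, needed for ribosomal RNA synthesis, had 66.3, 71.9, 14.4, 31.6 and 45.8 CPM in large tumours, 44.2 to 61.4 CPM in small tumours of batch 1 and 7.43 to 11.4 CPM in ER1 to ER3. Its fold was 1.13 ± 0.33, with 0.41 in batch 1 and 1.81 in batch 2. Uba6, a ubiquitin-activating enzyme, had 1.12 ± 0.36 (0.32 and 1.87), with 2.88 to 4.07 CPM in ER1 to ER3 and 5.74 CPM or more elsewhere. Cyld, a deubiquitinase that restrains NF-kB, had 0.79 ± 0.26 (0.34 and 1.26). Ogt, the enzyme that adds O-linked N-acetylglucosamine to proteins, had 58.0, 71.5, 38.1, 52.0 and 98.8 CPM in large tumours and 18.7 to 55.9 CPM in small ones. Its fold was 0.90 ± 0.28 (0.51 and 1.30). Ints2, a subunit of the Integrator complex (0.91 ± 0.28), Wdr11 (0.78 ± 0.25), Fam49a (0.86 ± 0.29) and Lrp12 (1.04 ± 0.36) completed the 10.

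Several genes with a fold in batch 2 had none of that size in batch 1, and 3 were named after their values were seen. Pgrmc2, a membrane heme-binding protein, had 101, 131 and 132 CPM in ER1 to ER3 and 2.63 to 16.6 CPM in the other 10 libraries. The fold of Pgrmc2 was 0.13 in batch 1 and −3.81 in batch 2 (size by batch term, unadjusted p = 0.000129, which missed the adjusted threshold). Pitpna, a phosphatidylinositol transfer protein, had 1958, 870 and 324 CPM in ER1 to ER3 and 40.0 to 144 CPM elsewhere, with folds of 0.02 and −3.42. Rras, a small GTPase, had 18.9 to 53.4 CPM in ER1 to ER3 and 1.05 to 5.50 CPM elsewhere, with folds of 0.33 and −3.14. In each of the 3 genes LR1 to LR3 lay closer to batch 1 than to ER1 to ER3.

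Compared over all genes, ER1 to ER3 differed from the small tumours of batch 1 in 2644 of 11984 genes (22.1%; edgeR, adjusted p below 0.05), 1554 higher and 1090 lower. LR1 to LR3 against the large tumours of batch 1 gave 0 of 11574 (0%; lowest adjusted p 0.991, 395 genes at an unadjusted p below 0.05), from 2 libraries against 3. The difference between these 2 batch contrasts is the size by batch term, which called 0 genes. In batch 2 the size class and the ER or LR label are the same division, so weight and whatever else separates ER from LR cannot be told apart.

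Genes in which ER1 to ER3 stood apart also differed in base composition. Transcripts of the 317 genes with ER1 to ER3 above the rest had a median GC content of 55.0% and a median length of 1249 bases. The 338 with ER1 to ER3 below had 45.3% and 2000 bases, and all tested genes had 50.5% and 1434 bases. Lengths and GC content were matched for 286, 313 and 10697 of these genes. Across genes, which are not independent, Spearman's rho of the size fold with GC content was −0.35 in batch 2, 0.21 in batch 1 and −0.23 with both. With genes cut into 10 equal groups by GC content, the median fold of the lowest group was 0.46 in batch 2 and −0.21 in batch 1, and that of the highest group was −0.53 and 0.03. With each library's trend over GC content taken out, 0 of 10697 genes passed (lowest adjusted p 0.881). The folds were then −0.997 for Rcan1, 0.78 for Ncoa4, 1.5 for Slc40a1, −2.07 for Egr3, −1.64 for Marcksl1 and −1.70 for Pgrmc2. The median of immediate early genes was −0.62, of iron handling genes 0.34 and of resident-type genes 0.87.

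**Figure D4:**
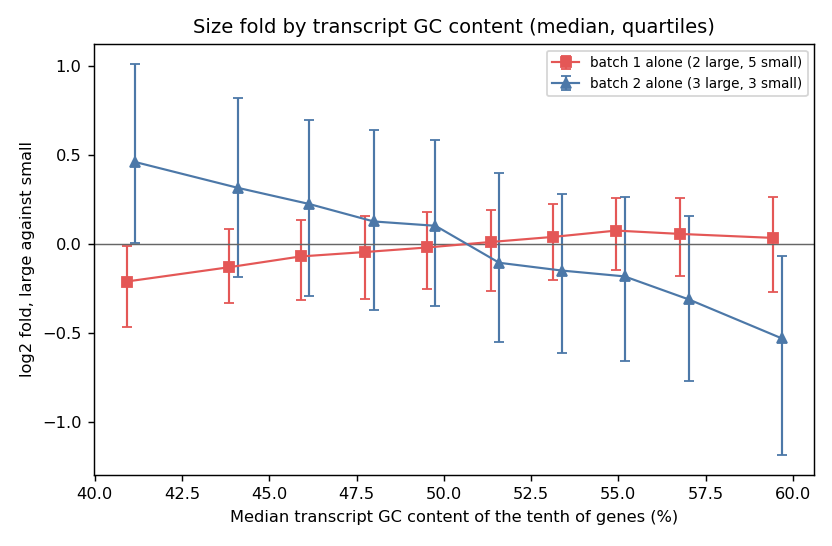
Log2 fold (large against small) by transcript GC content in percent, for 10 equal groups of genes, in batch 1 alone (red squares) and batch 2 alone (blue triangles). Points are medians and bars are quartiles over the genes of a group. From the lowest to the highest group the median runs from 0.46 to −0.53 in batch 2, and in batch 1 from −0.21 to 0.03.

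Markers of other cells that the sort could hold were measured beside these results. Fibroblast and matrix markers had 16 of 17 folds below 0 and a median of −1.27 (−1.23 in batch 1, −1.47 in batch 2), and −0.49 without small replicate 7. Their summed share of counts was 0.185 ± 0.260% in the 8 small and 0.0624 ± 0.0209% in the 5 large tumours (SD; two-sided exact permutation test, p = 0.378). Shares ran from 0.0182 to 0.749% in small and from 0.0296 to 0.0842% in large tumours. In batch 1 small replicate 1 held 0.404%, and small replicates 2 to 5 held 0.0344 to 0.108%. Bgn, a matrix proteoglycan, had 750 CPM in small replicate 7, 5.38 to 222 CPM in the other small tumours and 9.72 to 34.9 CPM in large ones. The Bgn fold of −3.02 ± 1.07 was −0.73 without that library. Col1a1, the fibrillar collagen chain, had −2.26 ± 1.01 and −0.53 without it. Mammary epithelial and tumour cell markers took 0.525% of counts in small replicate 7 and 0.00625 to 0.0646% in the others. Their median fold was −0.30, with 1.35 in batch 1 and −2.74 in batch 2, and 0.44 without small replicate 7. Macrophage identity genes took 4.62 ± 1.56% of counts in small tumours and 4.90 ± 1.33% in large ones (SD; two-sided exact permutation test, p = 0.713), with 1.74% in small replicate 7. Their median fold was 0.01. For all 11 marker lists the adjusted p of the share was 0.948. These tests exchanged labels across batches. With labels exchanged only within batches, p was 0.374 for the fibroblast list and 0.976 for macrophage identity, and the lowest of the 11 was 0.141 (two-sided exact permutation tests), so none passed.

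**Figure D5:**
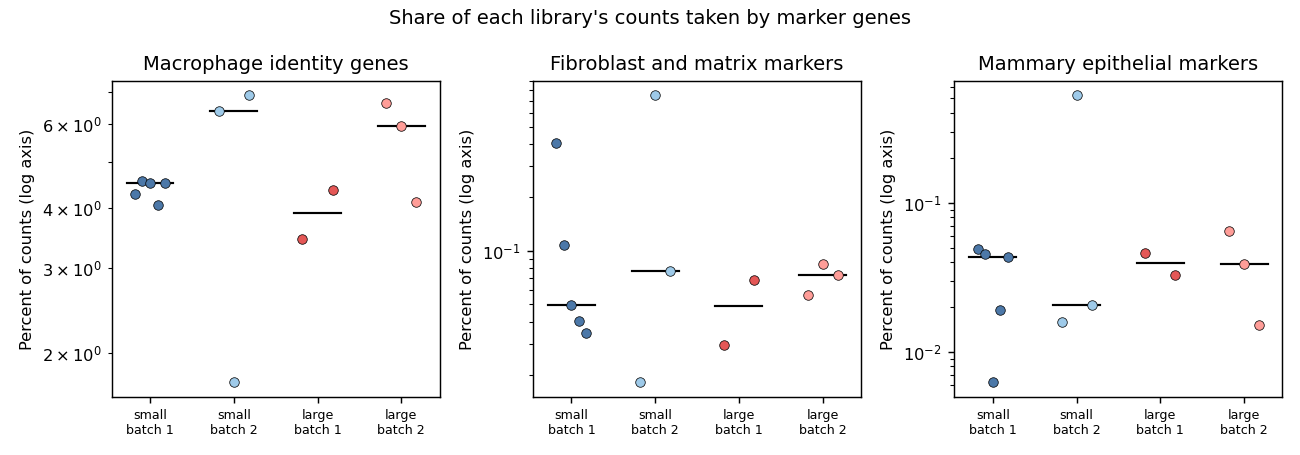
Share of each library's counts (percent, log axes) taken by macrophage identity genes, fibroblast and matrix markers and mammary epithelial markers, by size class and batch, with 1 point per tumour and a bar at the group median. Small replicate 7 is lowest for the first (1.74%) and highest for the other 2 (0.749% and 0.525%).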

How the data were processed

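Sorted macrophages of 13 tumours were measured as total mRNA, with polysome libraries of the same tumours as a second readout. The submitters' processing notes name mm10, limma, HISAT2 and HISAT without roles. Which tool counted reads, on which annotation and with what strand setting, is not given in the sources used here. The authors deposited 19549 gene rows per library with raw read counts and a column of log2 values, which was not used. In 830 rows the deposited names join overlapping genes.

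Counts were filtered with filterByExpr, scaled by TMM and fitted in edgeR 4.0.16 with its robust quasi-likelihood test (R 4.3.3) with batch as covariate and Benjamini-Hochberg adjustment at 0.05. Alternatives were limma 3.58.1 (voom with sample weights), DESeq2 1.42.0, other scalings, no filter, no batch term, log2 weight, each batch alone and leaving out libraries. Named genes were the 10 per direction with the lowest p, a mean of at least 10 CPM and 1 sign in both batches, up to 3 members of each of 36 lists and a panel. Joined rows, predicted genes and pseudogenes were left out of the first of these, and genes outside the rule are marked. The members, lists and rules were chosen with earlier results of these data known. Positions, lengths and GC content are from GENCODE M21 (GRCm38). The fit was tested on simulated data. Depth was 18018519 to 55609113 counts per library.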

Additional observations from a re-analysis of the deposited data

Results flagged for a closer look

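In groups of 8 small or 5 large tumours, 17 values lay farther from the rest of their group than Dixon's limit at 95%, of 150 groups tested on the log scale. Chance flags about 1 in 20 groups. Small replicate 7 was low for Nr4a1 (32.2 CPM), Hmox1 (60.7 CPM), Trem2 (151 CPM) and the share of macrophage identity genes (1.74%), and high for the share of mammary epithelial markers (0.525%). Large replicate 1 was high for Pfkfb3 (236 CPM) and Slc2a1 (408 CPM). Large replicate 3 was high for Lyve1 (39.2 CPM), Calm3 (236 CPM) and Ndufa5 (174 CPM) and low for Cyld (23.4 CPM). Large replicate 5 was high for Pgrmc2 (16.6 CPM) and Orai1 (46.7 CPM). Small replicate 5 was low for Il12b (0.124 CPM), small replicate 6 low for Ptgs2 (0.692 CPM), and small replicate 8 high for Cxcl2 (242 CPM) and low for the share of B cell markers (0.00244%). No explanation of these values was tested.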

How the results depend on the processing

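The count of 0 genes with a size difference held under each alternative run, including leaving out each library (281 to 806 genes at an unadjusted p below 0.05). The size by batch term called 0 genes without a filter and 0 to 4 when 1 library was left out, with 4 without small replicate 8 (Eme1_Lrrc59, Gm7030, Mbd3 and Rab22a) and 4 without large replicate 5 (Bag1, Pgrmc2, Pink1 and Ptges2). Genes without overlap numbered 10 lower and 7 higher after batch means were subtracted, and 18 and 15 within batches, a definition added after seeing the data, as were the fits without GC trend and without the 3 libraries apart. The same numbers of ER1 to ER3 and LR1 to LR3 as a replicate block gave 0 genes (659 at an unadjusted p below 0.05). The labels do not say that numbers mark pairs, and deviations of same-numbered tumours correlated at 0.219, −0.0142 and 0.384. ER1 and ER3 correlated best with their own number and ER2 did not (0.144 with LR1).

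Many of the 65 genes followed here were named for a low p in the main fit, some also for 1 sign in both batches. Most settings also share libraries, so the next count is a description. Gene folds kept their sign in 1591 of 1625 settings. In batch 1 alone Mrc1 had −0.10, Folr2 −0.035, Cd163 −0.58, Ccr2 −0.33, Ly6c2 −0.51, Cd36 −0.87, Idi1 −0.24, Pgrmc2 0.13, Rras 0.33 and Pitpna 0.022. In batch 2 alone Hspa1a had −0.0046, Ptgs2 1.28, Cxcl1 0.76 and Cxcl2 0.24. With voom, Lpl had −0.22, Adam8 −0.28, Cd36 −0.49 and Idi1 −0.083. Without the 3 libraries apart, Folr2 had −0.044, Cd163 −0.13, Trem2 −0.14 and Cd36 −0.011. Ptgs2 had 0.32 with log2 weight, and Cxcl2 0.31 without a batch term. When 1 library was left out, Lpl ranged from −0.22 to 1.58, Trem2 from −0.11 to 0.34, Hspa1a from −0.027 to 1.95, Adam8 from −0.10 to 1.82, Ptgs2 from −0.84 to 0.51, Cxcl1 from −1.60 to 0.27 and Cxcl2 from −1.10 to 0.029. The cause was not tested. List medians close to 0 changed sign with single libraries, and such values are given beside those lists.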

Other observations

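Some gene groups not described above lay near the level of all genes. Interferon response genes had a median log2 fold of 0.08 (16 of 30 above 0), lysosomal proteases and hydrolases 0.09 (16 of 22), complement and phagocytic receptors 0.05 (14 of 25) and integrated stress and unfolded protein response genes −0.08 (9 of 22). Checkpoint and immunosuppression genes had 0.22, with 14 of 19 above 0, and −0.04 without small replicate 7. Angiogenic factors had 0.25 with both batches, −0.16 in batch 1, 0.05 in batch 2 and −0.20 without large replicate 1. Heat shock genes had 0.15 and matrix proteases and inhibitors −0.02. When 1 library was left out, medians ran from −0.10 to 0.19 for interferon, −0.04 to 0.28 for lysosomal, −0.16 to 0.24 for complement, −0.11 to 0.07 for stress response, 0.04 to 0.29 for heat shock and −0.34 to 0.13 for matrix protease genes. None of these lists had a gene past the adjusted threshold.

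Other marker lists held few tested genes. The 5 mast cell markers tested had a median of −2.03, and −0.18 without small replicate 7, which held 0.0199% of its counts in this list against at most 0.00404% elsewhere. T and NK cell markers had −0.74 (7 tested) and 0.70 without the same library. Neutrophil markers had 0.54 (9 tested), dendritic cell markers 0.17 (15, and −0.61 without large replicate 1), endothelial markers 0.11 (6), muscle and fat markers 0.22 (4) and B cell markers 0.16 (2), and the 1 erythroid gene tested had 1.29. Lars2, the mitochondrial leucyl-tRNA synthetase gene, was named outside the rule, and its log2 fold was 1.23 ± 1.02. It had 39.2, 58.5 and 50.01 CPM in small replicates 6 and 7 and large replicate 3. Small replicate 8 had 1009.7 CPM, large replicate 4 had 494 CPM and the other libraries had 4104 to 8400 CPM.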
